A study of Mus musculus with 4 samples.

Results

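Neutrophil attracting CXC chemokines and their receptors were followed through the cells of orthotopic pancreatic tumors. The 6 genes were chosen by symbol among the 32285 genes that all 4 libraries list: the ligands Cxcl1, Cxcl2, Cxcl3 and Cxcl5 and the receptors Cxcr1 and Cxcr2. Their unique molecular identifiers (UMIs) were summed per library and cell class over cells with at least 200 detected genes, and a level is given as UMIs per 1000000 UMIs of that sum (CPM). A UMI marks 1 captured 3′ end, so CPM values of different genes can be compared without scaling to gene length.

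All 4 libraries came from KPC tumors, which grow from cells of a genetic mouse model of pancreatic cancer, grafted into the pancreas of obese male C57BL/6 mice on a high-fat diet. The labels give an age of 7 months for every library, while the paper's methods give an older age at grafting. Pdgfrb-TK mice carry a thymidine kinase transgene under the Pdgfrb promoter, so that ganciclovir (GCV) targets proliferating cells in which that promoter is active. These mice received GCV (Pdgfrb-TK/GCV) or phosphate-buffered saline (Pdgfrb-TK/PBS). Wild-type mice received the compound D-CAN (D-CAN) or saline (WT/PBS). D-CAN joins a homing peptide to a peptide that triggers apoptosis. The paper describes its main targets as adipose stromal cells, and cells derived from them, with nonglycanated decorin and PDGFRβ. The promoter is active in pericytes as well as fibroblasts, and the graft comes from 1 source of tumor cells. Suspensions of several tumors were pooled by treatment, so each condition is 1 library, no test between conditions is possible, and every interval below is a 95% interval that covers counting error only. GCV was compared with Pdgfrb-TK/PBS and D-CAN with WT/PBS.

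The ligands belong to the CXC chemokines with a glutamate, leucine and arginine motif before the first cysteines, which bind CXCR2 and draw neutrophils out of the blood into tissue. Tumor cells, fibroblasts and myeloid cells make them when interleukin 1, tumor necrosis factor or interleukin 17 activates NF-κB, and their messages are short-lived. In pancreatic cancer the axis is known for bringing in neutrophils and other CXCR2-bearing myeloid cells.

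The 4 ligand genes lie in 1 region of chromosome 5, all on the forward strand, within 147 kb (GRCm38, mm10, GENCODE M21 annotation). From the centromere side these are Cxcl5 (chr5:90759360-90761624), Cxcl3 (chr5:90786103-90789600), Cxcl1 (chr5:90891241-90893115) and Cxcl2 (chr5:90903871-90905938). The receptor genes are neighbours on chromosome 1, with Cxcr2 at chr1:74153989-74161246 on the forward strand and Cxcr1 at chr1:74191785-74194631 on the reverse strand. The promoters of the 3 ligands with an entry in the RefSeq table for GRCm38.p6 are shown. No entry was matched for Cxcl5, so its promoter was not searched. The windows are the 130 bases before the RefSeq start, which lies inside the GENCODE gene for Cxcl1 and Cxcl2, on the forward strand of chromosome 5, at chr5:90891115-90891244 for Cxcl1, chr5:90903769-90903898 for Cxcl2 and chr5:90785971-90786100 for Cxcl3. Capitals mark the κB match and, in Cxcl3, the letters TATAAA.
Cxcl1: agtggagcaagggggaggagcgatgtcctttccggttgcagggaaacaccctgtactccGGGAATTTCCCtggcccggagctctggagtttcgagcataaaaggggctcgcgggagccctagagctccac
Cxcl2: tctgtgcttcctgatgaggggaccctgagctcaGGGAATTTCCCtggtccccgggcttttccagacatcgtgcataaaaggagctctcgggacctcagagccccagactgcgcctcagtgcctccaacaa
Cxcl3: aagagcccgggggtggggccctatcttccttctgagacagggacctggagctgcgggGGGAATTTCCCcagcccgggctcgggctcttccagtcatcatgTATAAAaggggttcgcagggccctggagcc

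The same 11 bases, GGGAATTTCCC, stand in all 3 windows, and the run holds a match to the κB motif on each strand, the pair overlapping within it. The match begins 71 bases before the start of Cxcl1, 97 bases before that of Cxcl2 and 73 bases before that of Cxcl3. Whole windows, shifted without gaps to their best match in pairs, had 31.8% to 44.5% identical bases. Over the 250 bases before the start, 7.25% of all 32851 RefSeq promoters hold a κB match on either strand and 12.4% hold TATAAA. No match to TGANTCA, the AP-1 motif held by 6.75% of promoters, or to TTGCNNAA, a C/EBP motif held by 9.56%, was found in these letters. The last 400 bases of the ligand transcripts share no 31-base run between any pair of ligands, so 3′ reads of that length keep the ligands apart.

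The libraries held 12280, 10469, 10178 and 11627 cells in the order GCV, its PBS control, D-CAN and its PBS control. These cells held between 84000174 and 155382616 UMIs per library. Cells were put into classes by markers that include none of the members, and 33112 of 44554 cells (74.3%) fell into 1 class. Fibroblast-gated cells numbered 239, 447, 1156 and 1758 in that order and neutrophil-gated cells 216, 294, 573 and 315. Between 4.48% and 29.3% of the cells of a library had over 20% mitochondrial UMIs, with the highest share in D-CAN, and pairs of libraries shared 25 to 40 cell barcodes.

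Cxcl2 was the most abundant, and its highest level was in neutrophils. Cxcl3 followed the same cells at a lower level, except in WT/PBS, where macrophages exceeded neutrophils. Cxcl1 was highest in stromal cells and macrophages of WT/PBS, and Cxcl5 was a gene of tumor cells and fibroblasts. The receptor Cxcr2 had its highest level in neutrophils, though in Pdgfrb-TK/GCV macrophage/monocyte-gated cells held more of its UMIs. Cxcr1 was close to the limit of detection.

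Cxcl1, a ligand made by epithelium and stroma, stood in fibroblast-gated cells at 77.7 CPM in Pdgfrb-TK/GCV against 26.4 CPM in Pdgfrb-TK/PBS, and 294 CPM in D-CAN against 948 CPM in WT/PBS. The saline library of wild-type mice was thus the highest and that of Pdgfrb-TK mice the lowest. In macrophage/monocyte-gated cells the levels were 92.6 CPM in Pdgfrb-TK/GCV against 49.6 CPM in Pdgfrb-TK/PBS, and 134 CPM in D-CAN against 689 CPM in WT/PBS, in the same order of libraries except that D-CAN and Pdgfrb-TK/GCV lay closer together. Tumor-gated cells had 42.7 CPM in Pdgfrb-TK/GCV against 15.7 CPM in Pdgfrb-TK/PBS, and 20.8 CPM in D-CAN against 45.1 CPM in WT/PBS, so the 2 lower values were those of Pdgfrb-TK/PBS and D-CAN. Among classes of at least 20 cells the order in WT/PBS was pericyte (1111 CPM, interval 1015 to 1214, from 490 UMIs in 67 cells), fibroblast (935 to 961), macrophage/monocyte, endothelial (249.7 CPM), neutrophil (46.9 to 80.7) and tumor (43.8 to 46.5), with no overlap between neighbours, while the lymphocyte interval (14.4 to 85.6) overlapped those of the last 2. In the Pdgfrb-TK libraries neutrophils came first instead, with 113 CPM (85.1 to 148) in Pdgfrb-TK/GCV, which overlaps the macrophage/monocyte interval of 87.2 to 98.3, and 101 CPM (72.1 to 139) in Pdgfrb-TK/PBS. In Pdgfrb-TK/GCV fibroblasts (68.0 to 88.4) overlapped macrophages from below, and then came tumor cells, with lymphocytes (20.5 to 43.4) and endothelial cells (8.53 to 43.7) overlapping them. In Pdgfrb-TK/PBS macrophages (39.1 to 62.0) were followed by fibroblasts (20.6 to 33.2) and tumor cells (14.8 to 16.6), which do not overlap, and the pericyte interval, from 2 UMIs, spans all of these. In D-CAN the order was fibroblast, macrophage/monocyte, then tumor at 20.8 CPM, neutrophil at 18.9 CPM and endothelial at 17.2 CPM, and the intervals of these last 3 classes overlap.

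Cxcl2, a ligand made above all by myeloid cells, reached 19006 CPM in Pdgfrb-TK/GCV against 29324 CPM in Pdgfrb-TK/PBS, and 7862 CPM in D-CAN against 9259.9 CPM in WT/PBS in neutrophil-gated cells. The Pdgfrb-TK libraries were the higher pair. Macrophage/monocyte-gated cells came next in 3 libraries, with 1336 CPM in Pdgfrb-TK/GCV against 865 CPM in Pdgfrb-TK/PBS, and 1972 CPM in D-CAN against 5147 CPM in WT/PBS, and here WT/PBS was the highest. In Pdgfrb-TK/PBS the pericyte gate, with 23 cells and 87 UMIs, stood between them at 1258 CPM. Neutrophil markers summed to 1243 CPM in that gate, against 43.8, 74.6 and 90.7 CPM in the pericyte gate of Pdgfrb-TK/GCV, D-CAN and then WT/PBS, and their part was not tested. Fibroblast-gated cells had 70.6 CPM in Pdgfrb-TK/GCV against 41.2 CPM in Pdgfrb-TK/PBS, and 197 CPM in D-CAN against 586 CPM in WT/PBS, and tumor-gated cells 94.8 CPM in Pdgfrb-TK/GCV against 44.9 CPM in Pdgfrb-TK/PBS, and 50.5 CPM in D-CAN against 104 CPM in WT/PBS. Tumor cells exceeded fibroblasts in Pdgfrb-TK/GCV, the intervals of the pair overlapped in Pdgfrb-TK/PBS, and fibroblasts were higher in the other libraries. Levels in endothelial-gated cells ran from 27.3 CPM in D-CAN to 106 CPM in WT/PBS. Lymphocytes, which should lack the ligand, had 69.9, 74.9, 39.4 and 45.9 CPM, in the order GCV, its PBS control, D-CAN and its PBS control. Their interval in Pdgfrb-TK/PBS (35.9 to 138) spans the tumor and fibroblast levels of that library, and that in Pdgfrb-TK/GCV (54.4 to 88.4) spans the fibroblast level, so these levels cannot be told from background.

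Cxcl3, a close relative of Cxcl2, stood in neutrophil-gated cells at 1121 CPM in Pdgfrb-TK/GCV against 1107 CPM in Pdgfrb-TK/PBS, and 544 CPM in D-CAN against 386 CPM in WT/PBS. In macrophage/monocyte-gated cells it had 63.7 CPM in Pdgfrb-TK/GCV against 38.0 CPM in Pdgfrb-TK/PBS, and 148 CPM in D-CAN against 1082 CPM in WT/PBS, so only in WT/PBS was it higher in macrophages than in neutrophils. Tumor-gated cells held 8.08 CPM in Pdgfrb-TK/GCV against 3.33 CPM in Pdgfrb-TK/PBS, and 5.75 CPM in D-CAN against 17.3 CPM in WT/PBS. The fibroblast gate held 3.03 CPM in Pdgfrb-TK/GCV against 0.371 CPM in Pdgfrb-TK/PBS, and 10.0 CPM in D-CAN against 56.5 CPM in WT/PBS, where the Pdgfrb-TK/PBS value is 1 UMI. Lymphocytes had 10.1, 0, 4.26 and 6.56 CPM in the order GCV, its PBS control, D-CAN and its PBS control, so the tumor and fibroblast values in Pdgfrb-TK/GCV did not exceed the lymphocyte level. In Pdgfrb-TK/PBS the limit that 0 UMIs allow, 22.5 CPM, lies above both values, and the lymphocyte intervals in D-CAN (2.38 to 7.02) and WT/PBS (0.166 to 36.5) span the tumor level. The dendritic gate of WT/PBS reached 1901 CPM, from 96 UMIs in 7 cells.

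Cxcl5, an epithelial ligand of the family, stood in tumor-gated cells at 25.2 CPM in Pdgfrb-TK/GCV against 19.0 CPM in Pdgfrb-TK/PBS, and 36.0 CPM in D-CAN against 53.8 CPM in WT/PBS. Fibroblast-gated cells had 30.9 CPM in Pdgfrb-TK/GCV against 23.4 CPM in Pdgfrb-TK/PBS, and 63.6 CPM in D-CAN against 50.7 CPM in WT/PBS. Fibroblasts exceeded tumor cells in D-CAN, the intervals overlapped in the Pdgfrb-TK libraries and at the edge in WT/PBS (47.8 to 53.8 against 52.3 to 55.3). Macrophage/monocyte-gated cells had it at 1.29 to 6.14 CPM and neutrophils at 2.10 to 8.88 CPM. Lymphocytes of Pdgfrb-TK/GCV held 14 Cxcl5 UMIs in the B gate and 1 in the T/NK gate. Their interval overlapped that of tumor cells and, at the edge, that of fibroblasts. In Pdgfrb-TK/PBS lymphocytes held 0 Cxcl5 UMIs. The limit this allows, given above for Cxcl3, lies above the tumor level and inside the fibroblast interval.

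Cxcr2, the receptor that these ligands share, stood in neutrophil-gated cells at 166 CPM in Pdgfrb-TK/GCV against 164 CPM in Pdgfrb-TK/PBS, and 264 CPM in D-CAN against 84.3 CPM in WT/PBS. Among other gates with more than 3 Cxcr2 UMIs the highest level was that of macrophage/monocyte-gated cells of Pdgfrb-TK/GCV, 10.2 CPM from 120 UMIs, and the pericyte gate of Pdgfrb-TK/PBS held 3 UMIs in 23 cells, 43.4 CPM. In macrophages the other libraries held 1, 9 and 7 UMIs, in the order Pdgfrb-TK/PBS, D-CAN and then WT/PBS. Tumor-gated cells lay between 0.109 and 0.372 CPM. Cxcr1, a second receptor for some of these ligands, had 7, 5, 12 and 5 UMIs in whole libraries, of which the neutrophil gate held 3, 3, 10 and 1.

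**Figure D1:**
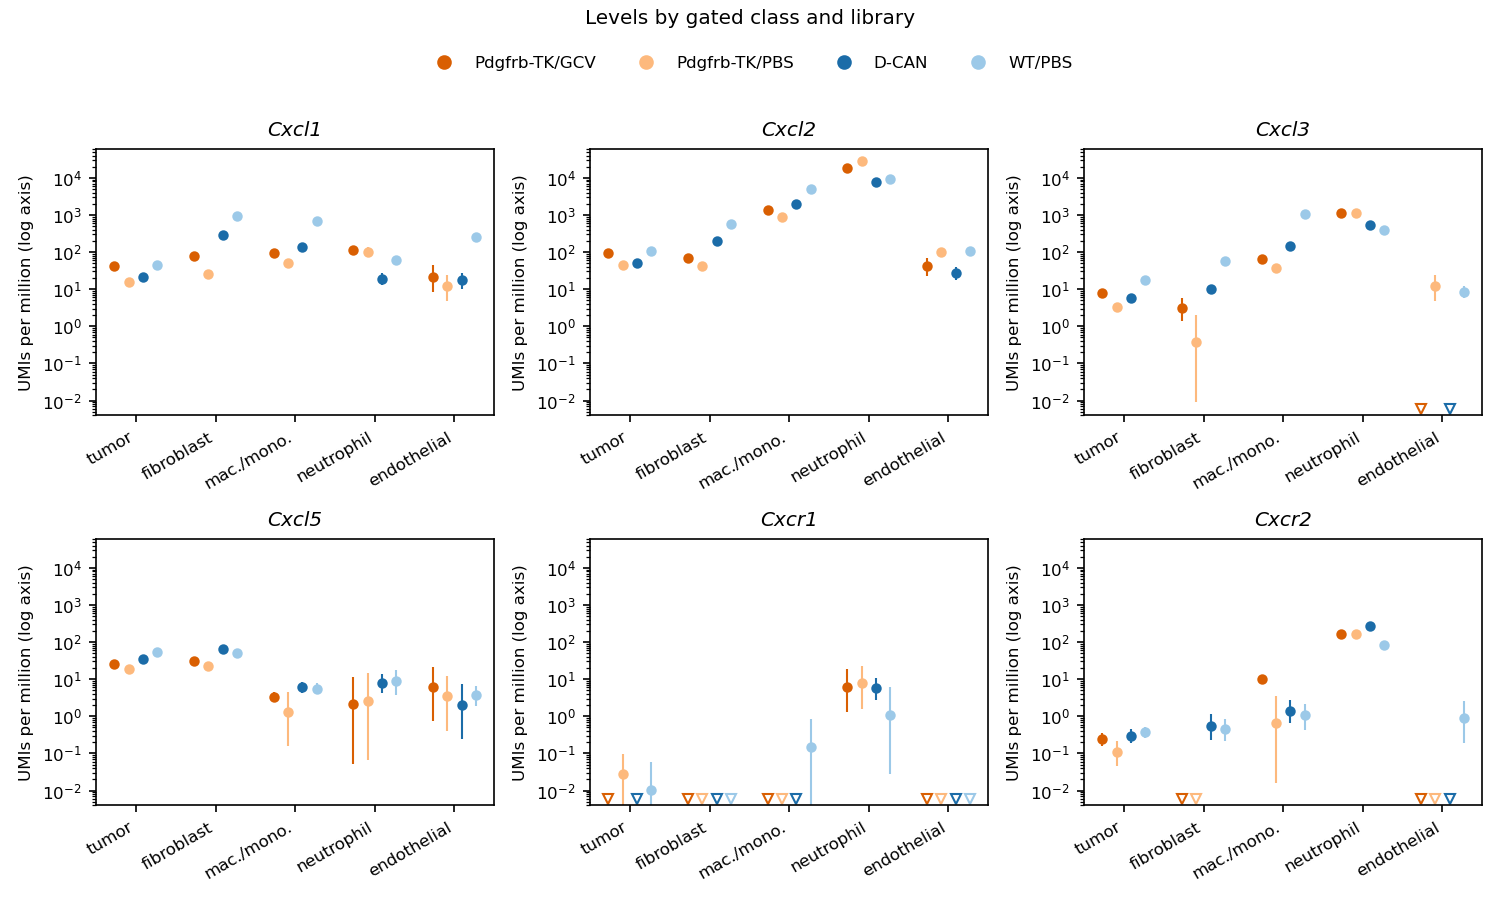
CPM of each member (y axis, log scale) by gated cell class (x axis) in the 4 libraries (colors), with bars for 95% intervals of the counts and open triangles for 0 UMIs. Neutrophils lead for Cxcl2 and Cxcr2, and Cxcl1 of fibroblasts spans 26.4 to 948 CPM over the libraries.

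Shares of cells with a UMI were taken after thinning every cell to 2000 UMIs, with T, NK and B lymphocytes beside them as cells that should lack the ligands. Cxcl1 was found in 4.62%, 1.80%, 2.15% and 5.85% of tumor-gated cells in the order GCV, its PBS control, D-CAN and its PBS control (unthinned 13.4%, 4.46%, 10.1% and 23.0%). In lymphocytes it was found in 3.85% (1.56 to 7.76%) in Pdgfrb-TK/GCV, 1.61% (0.776 to 2.95%) in D-CAN, 8.11% (1.70 to 21.9%) in WT/PBS, while the Pdgfrb-TK/PBS library had 0 Cxcl1 UMIs in its 100 lymphocytes. The tumor-wide share of Cxcl1 thus cannot be told from that of lymphocytes at this depth. By CPM, tumor-gated cells stood above lymphocytes in D-CAN (20.8 against 5.96 CPM), the intervals overlapped in Pdgfrb-TK/GCV and WT/PBS, and in Pdgfrb-TK/PBS the limit that 0 UMIs allow, 22.5 CPM, lies above the tumor level. Particular tumor clusters, described further on, stand well above the lymphocytes. Median depths differed, at 12206.5 UMIs for tumor-gated cells and 1939 UMIs for lymphocytes of Pdgfrb-TK/GCV, and 734 and 218 cells of these were too shallow to thin. Fibroblasts of WT/PBS, with Cxcl1 in 30.2% of cells, lay above the lymphocytes of their library. Macrophages of WT/PBS, with 24.8%, lay close to the upper end of the lymphocyte interval, and by CPM they stood at 689 against a lymphocyte interval of 14.4 to 85.6. Cxcl2 was found in 33.2%, 20%, 37.0% and 55.0% of macrophage/monocyte-gated cells and in 94.2%, 81.0%, 72.2% and 62.2% of neutrophils deep enough to thin (69, 21, 309 and 143 cells), against 9.89%, 11.1%, 2.90% and 8.11% of lymphocytes. Unthinned, the 5% of tumor-gated cells with the most Cxcl1 held 84.9%, 100%, 90.5% and 74.9% of its UMIs. In Pdgfrb-TK/PBS only 4.46% of these cells had a Cxcl1 UMI, so 100% was fixed by detection. The other shares also depend on detection and depth, so uneven expression cannot be read from them.

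Taken over whole libraries, the source of a ligand depends on how many cells of each class were captured as well as on the level per class. Tumor-gated cells held 66.0% and 79.1% of all Cxcl1 UMIs in Pdgfrb-TK/GCV and Pdgfrb-TK/PBS but 25.8% and 11.9% in D-CAN and WT/PBS. Fibroblast-gated cells held 52.9% of Cxcl1 in D-CAN and 57.8% in WT/PBS, against 3.62% and 4.87% in the Pdgfrb-TK libraries. The tumor gate held 77.1% and 87.5% of all UMIs in Pdgfrb-TK/GCV and Pdgfrb-TK/PBS, above its shares of Cxcl1. The fibroblast gate held 9.64% and 13.9% of all UMIs in D-CAN and WT/PBS, below its shares of Cxcl1. By count, most Cxcl1 UMIs thus lay in the tumor gate in Pdgfrb-TK libraries and in the fibroblast gate in wild-type libraries.

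Cxcl2 came mainly from myeloid cells, with 19.9%, 53.4%, 35.5% and 9.43% in neutrophil-gated and 34.7%, 6.37%, 32.3% and 38.6% in macrophage/monocyte-gated cells, in the order GCV, its PBS control, D-CAN and its PBS control. Of all Cxcl5 UMIs, 87.6%, 90.1%, 70.7% and 71.1% lay in tumor-gated cells. That gate held 77.1%, 87.5%, 66.6% and 60.6% of all UMIs, so these shares largely follow its size. For the 4 ligands summed, the leading gate was macrophage/monocyte in Pdgfrb-TK/GCV (30.8%) and WT/PBS (31.3%) and neutrophil in Pdgfrb-TK/PBS (46.7%) and D-CAN (27.6%). Cxcr2 UMIs lay in neutrophils to 29.7%, 68.5%, 85.2% and 43.7%, and in Pdgfrb-TK/GCV the macrophage/monocyte gate held another 45.1%. Cells outside every gate are left in these totals.

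**Figure D2:**
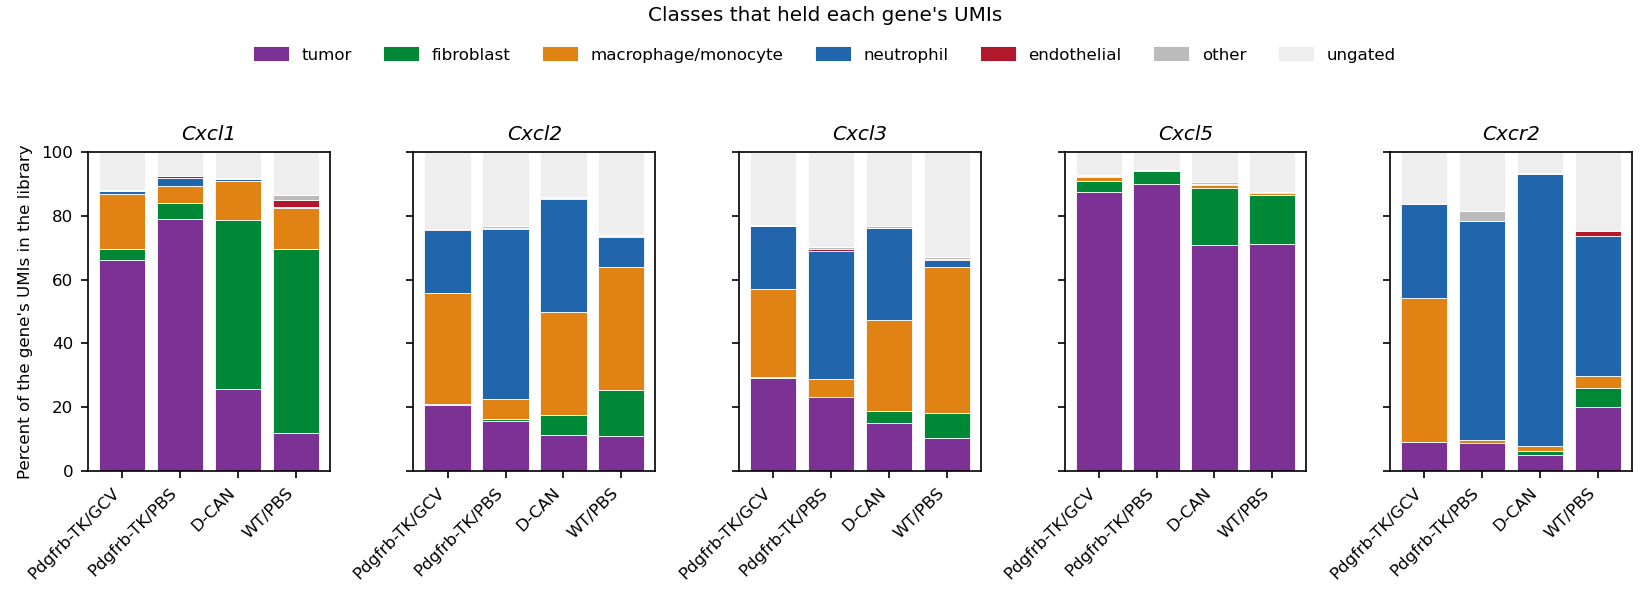
Percent of each member's UMIs (y axis, 0 to 100%) by gated cell class (stacked colors) in each library (bars). The bars for Cxcl1 change from mostly tumor cells in both Pdgfrb-TK libraries to mostly fibroblasts in D-CAN (52.9%) and WT/PBS (57.8%).

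The GCV comparison asks what differed after GCV was given to mice in which it targets proliferating cells with an active Pdgfrb promoter. In tumor-gated cells 3 of 4 ligands were more than 2-fold higher in Pdgfrb-TK/GCV than in Pdgfrb-TK/PBS and 0 were 2-fold lower, beside 11.7% of all tested genes higher and 3.15% lower by that measure. Cxcl1 was 2.72-fold higher (interval 2.55 to 2.91), Cxcl3 2.42-fold higher (interval 2.10 to 2.81) and Cxcl2 2.11-fold higher (interval 2.03 to 2.20), while Cxcl5 was 1.33-fold higher (interval 1.24 to 1.42). The median log2 fold of the ligands was 1.06, and that of all genes 0.11. The tumor levels of Cxcl1, Cxcl3 and Cxcl5 in both libraries, and of Cxcl2 in Pdgfrb-TK/PBS, could not be told from those of lymphocytes. Cxcl2 and Cxcl3 were under 2-fold with the looser gate, at 1.93 and 1.94, and with each cell weighted alike, at 1.34 and 1.58. Macrophage/monocyte markers in this gate summed to 52.5 CPM against 20.8 CPM and neutrophil markers to 15.3 against 28.7 CPM. The 2 libraries also differed in 4 markers of red blood cells, which were in no gate. These summed to 26.0 CPM over all Pdgfrb-TK/GCV cells against 658 CPM in Pdgfrb-TK/PBS. In the tumor gate they summed to 10.2 against 202 CPM, and in lymphocytes to 0 against 5065 CPM. The part of all these markers was not tested.

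In fibroblast-gated cells 1 of 3 ligands with enough UMIs was more than 2-fold higher, beside 2.33% of genes higher and 4.58% lower. That ligand was Cxcl1, 2.95-fold higher (interval 2.25 to 3.90), with Cxcl2 1.71-fold higher (interval 1.36 to 2.18) and Cxcl5 1.32-fold higher (interval 0.95 to 1.85). Cxcl3 had 9 UMIs against 1. The Cxcl2 level of this gate could not be told from that of lymphocytes in either library. Macrophage/monocyte markers in this gate summed to 138 CPM against 46.8 CPM, neutrophil markers to 142 against 126 CPM and tumor markers to 845 against 1774 CPM, and their part in the folds was not tested. In macrophage/monocyte-gated cells 0 of 3 ligands passed 2-fold, where 6.40% of genes were higher and 2.94% lower, and the values were 1.87-fold higher (interval 1.48 to 2.39) for Cxcl1, 1.54-fold higher (interval 1.46 to 1.63) for Cxcl2 and 1.68-fold higher (interval 1.29 to 2.23) for Cxcl3. The receptor Cxcr2 differed most in this class, at 120 UMIs against 1 UMI and a ratio of 15.8 with a counting interval of 2.78 to 629.

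Neutrophil markers were set beside that Cxcr2 value. In the macrophage/monocyte gate of Pdgfrb-TK/GCV, Cxcr2 stood at 6.13% of its level in neutrophils of the same library, and S100a8, S100a9 and Csf3r at 0.736%, 0.0772% and 4.22% of theirs. The 10 neutrophil markers summed to 476 CPM in this gate and to 301, 497 and 345 CPM in that of the Pdgfrb-TK/PBS, D-CAN and then WT/PBS library, with 9 of 10 detected in every library and Ly6g at 0 UMIs in each. The Cxcr2 UMIs were found in both large macrophage clusters, 47 in cluster 6 and 70 in cluster 10.

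In neutrophil-gated cells 0 of 3 tested ligands passed 2-fold, with 3.93% of genes higher and 2.07% lower. Cxcl2 was 1.54-fold lower (interval 1.5 to 1.59), Cxcl3 had a ratio of 1.01 (0.889 to 1.15) and Cxcr2 also of 1.01 (0.718 to 1.43). The endothelial gate held 49 and 144 cells, and 1 of 1 tested ligand, Cxcl2, was 2.42-fold lower (interval 1.34 to 4.69), beside 2.86% of genes higher and 2.81% lower. The endothelial Cxcl2 levels, 42.4 and 103 CPM, could not be told from those of lymphocytes in either library. Neutrophil markers in this gate summed to 45.4 CPM against 144 CPM, with S100a9 at 0 against 47.9 CPM, and their part was not tested.

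The D-CAN comparison asks what differed after a compound whose main targets the paper describes as adipose stromal cells and cells derived from them. Here most ligands were lower than in the control. The 2 libraries also differed in 10 markers of acinar cells, which were in no gate. These summed to 342 CPM over all D-CAN cells against 23.4 CPM in WT/PBS, and to 220 against 29.1 CPM in the tumor gate. Their part in the folds was not tested. In tumor-gated cells 3 of 4 ligands were more than 2-fold lower in D-CAN than in WT/PBS, beside 6.80% of tested genes lower and 15.6% higher. Cxcl3 was 3.01-fold lower (interval 2.72 to 3.34), Cxcl1 2.17-fold lower (interval 2.05 to 2.30) and Cxcl2 2.06-fold lower (interval 1.98 to 2.13), and Cxcl5 was 1.49-fold lower (interval 1.43 to 1.56). The median log2 fold of the ligands was -1.05 and that of all genes 0.14. The tumor levels of Cxcl3 in both libraries, and of Cxcl1 in WT/PBS, could not be told from those of lymphocytes.

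In fibroblast-gated cells 3 of 4 ligands were more than 2-fold lower, beside 8.28% of genes lower and 15.5% higher. Cxcl3 was 5.65-fold lower (interval 4.70 to 6.85), Cxcl1 3.22-fold lower (interval 3.11 to 3.34) and Cxcl2 2.97-fold lower (interval 2.85 to 3.11). Cxcl5 went the other way and was 1.25-fold higher (interval 1.14 to 1.38). Markers of other classes in this gate were close between the libraries for neutrophils, at 188 CPM in D-CAN against 191 CPM in WT/PBS for 10 genes summed, and lower in D-CAN for macrophages, at 62.3 and 101 CPM. Tumor markers in this gate summed to 664 and 1311 CPM, and the part of these markers in the folds was not tested.

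In macrophage/monocyte-gated cells 3 of 4 ligands were more than 2-fold lower, beside 4.33% of genes lower and 14.6% higher. Cxcl3 was 7.33-fold lower (interval 6.85 to 7.86), Cxcl1 5.15-fold lower (interval 4.79 to 5.55) and Cxcl2 2.61-fold lower (interval 2.56 to 2.66), while Cxcl5 had 39 and 37 UMIs, a ratio of 1.10 (0.684 to 1.78). In the endothelial gate, with 104 and 401 cells, 2 of 2 tested ligands were more than 2-fold lower, beside 4.69% of genes lower and 11.7% higher. Cxcl1 was 14.5-fold lower (interval 9.03 to 25.1) and Cxcl2 3.89-fold lower (interval 2.63 to 5.99). Endothelial Cxcl2 in D-CAN, 27.3 CPM, did not exceed the lymphocyte level of that library, 39.4 CPM. Macrophage/monocyte markers in this gate summed to 60.6 CPM against 173 CPM and neutrophil markers to 50.5 against 57.2 CPM, and their part was not tested.

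In neutrophils the ligands did not share 1 direction. In the neutrophil gate 1 of 3 tested ligands was more than 2-fold lower, beside 4.91% of genes lower and 14.4% higher. This was Cxcl1, 3.29-fold lower (interval 2.10 to 5.22), from 33 and 56 UMIs, while Cxcl2 was 1.18-fold lower (interval 1.15 to 1.21) and Cxcl3 1.41-fold higher (interval 1.24 to 1.60). The receptor Cxcr2 was 3.14-fold higher (interval 2.46 to 4.05), in 39.8% against 16.1% of thinned neutrophils. Cxcr1 had 10 UMIs in D-CAN and 1 UMI in WT/PBS.

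**Figure D3:**
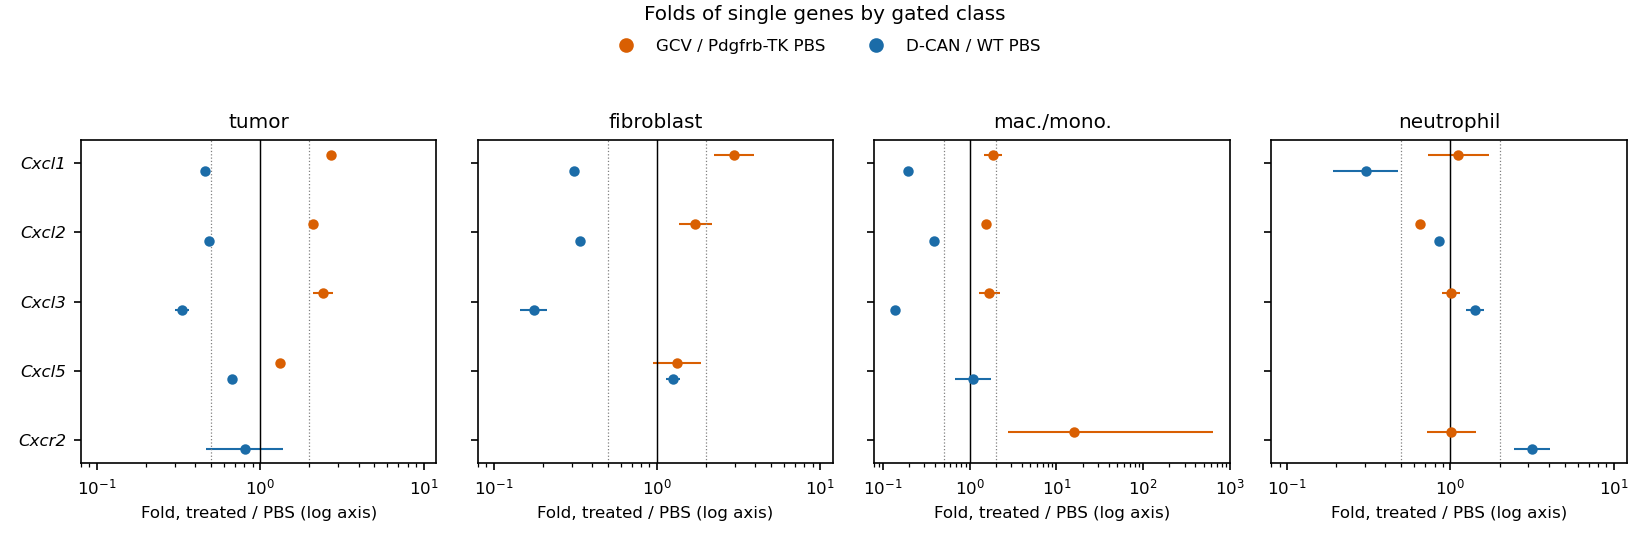
Ratio of CPM of each member (x axis, log scale, with 1 as a solid line and 2-fold either way as dotted lines) for GCV over Pdgfrb-TK/PBS (orange) and D-CAN over WT/PBS (blue) in 4 gated classes (panels), with bars for 95% counting intervals and members with too few UMIs left out. In tumor cells Cxcl1 lies at 2.72-fold higher with GCV and at 2.17-fold lower with D-CAN, and the macrophage panel has a longer axis for Cxcr2.

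In tumor, fibroblast and macrophage/monocyte gates the 2 control libraries differed from each other in Cxcl1, Cxcl2 and Cxcl3 by more than either treated library differed from its control. Cxcl1 was 2.87-fold lower in Pdgfrb-TK/PBS than in WT/PBS in tumor-gated cells, 36.0-fold lower in fibroblasts and 13.9-fold lower in macrophages. Cxcl2 was 2.31-fold, 14.2-fold and 5.95-fold lower in these classes. In the endothelial gate Cxcl1 was 20.8-fold lower in Pdgfrb-TK/PBS than in WT/PBS (interval 10.1 to 52.0), and Cxcl2 had a ratio of 0.968 (0.723 to 1.28). In neutrophils the order was reversed, with Cxcl2 3.17-fold higher (interval 3.08 to 3.26), Cxcl3 2.87-fold higher (interval 2.48 to 3.31) and Cxcr2 1.94-fold higher (interval 1.37 to 2.75) in Pdgfrb-TK/PBS. Red blood cell markers summed to 658 CPM over all cells of Pdgfrb-TK/PBS against 6.56 CPM in WT/PBS, and their part was not tested. The transgene, the library and the pool of mice cannot be told apart here.

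The direction of the ligand sum depended on which PBS library served as the control. Against its own control the sum in tumor-gated cells had a ratio of 2.06 for GCV, and against WT/PBS one of 0.776. In fibroblasts the GCV ratio was 2.0 against its own control and 0.111 against WT/PBS, and in macrophage/monocyte-gated cells 1.57 and 0.216. For D-CAN the ratio in tumor-gated cells was 0.514 against WT/PBS and 1.36 against Pdgfrb-TK/PBS. In fibroblasts the D-CAN ratio was 0.344 against its own control and 6.19 against the other, and in macrophage/monocyte-gated cells 0.326 and 2.37.

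In clusters 5 and 14 of a clustering made without the 6 members, the summed ligands exceeded the level of the whole tumor gate. These clusters were picked out after their values were seen. Cluster 5 was led by Cryab, Ptgs2, Ccn1 and Atf3, and cluster 14 by Hspa1a, Ccl20, Sprr1a and Fos, genes of stress and immediate early responses among them. In the order GCV, its PBS control, D-CAN and its PBS control, clusters 5 and 14 held 18.6%, 5.56%, 13.5% and 33.4% of tumor-gated cells. Together they held 63.3%, 39.8%, 69.2% and 75.8% of the ligand UMIs of the gate. Their cells were deeper, with medians of 18234 and 22178 UMIs against 7274.5 to 15212.5 UMIs in clusters 0, 1, 3 and 4. Shares of cells and of UMIs are thus unlike measures. By CPM the summed ligands stood at 269 and 397 against 220 in the whole gate in WT/PBS. In Pdgfrb-TK/PBS they stood at 334 and 624 against 82.9 CPM. Within cluster 14 Cxcl1 stood at 247, 226, 104 and 74.3 CPM, and within cluster 5 at 71.9, 114, 65.5 and 64.9 CPM. Unthinned, 52.3%, 30.2%, 33.3% and 39.2% of the cells of cluster 14 had a Cxcl1 UMI. In tumor clusters 0, 1, 3 and 4, which made up most of the other tumor-gated cells, Cxcl1 lay at 3.35 to 17.8 CPM. Smaller sets of tumor-gated cells in other clusters also had high ligand sums, 642 CPM in cluster 12 of Pdgfrb-TK/GCV (118 cells) against 249 CPM in cluster 5, and 254 CPM in cluster 11 of WT/PBS (476 cells) against 269 CPM in cluster 5. Tumor-gated cells of cluster 12 were led by H2-Ab1, H2-Eb1 and Cd74, with Tyrobp and Fcer1g following. Those of cluster 11 were led by Mgp, Col1a1 and Bgn, and Col1a1 is a fibroblast marker of the gate. Doublets were kept, and the part of other cell classes in these sets was not tested.

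The order of the libraries within these clusters was not that of the whole gate. Cxcl1 of cluster 14 was highest in Pdgfrb-TK/GCV and lowest in WT/PBS, and Cxcl2 of cluster 14 likewise, at 414, 332, 261 and 159 CPM. Cxcl5 of cluster 14 had 65.8, 51.9, 106 and 136 CPM, with WT/PBS the highest. An alternative that gave clusters the same weight in both libraries was added after the data were seen. It left out clusters with under 20 cells of the gate in either library. The ligand sum of the tumor gate moved to a ratio of 1.17 for GCV and 1.01 for D-CAN. Single ligands for GCV were then at 1.10 for Cxcl1, 1.18 for Cxcl2 and 1.45 for Cxcl3.

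**Figure D4:**
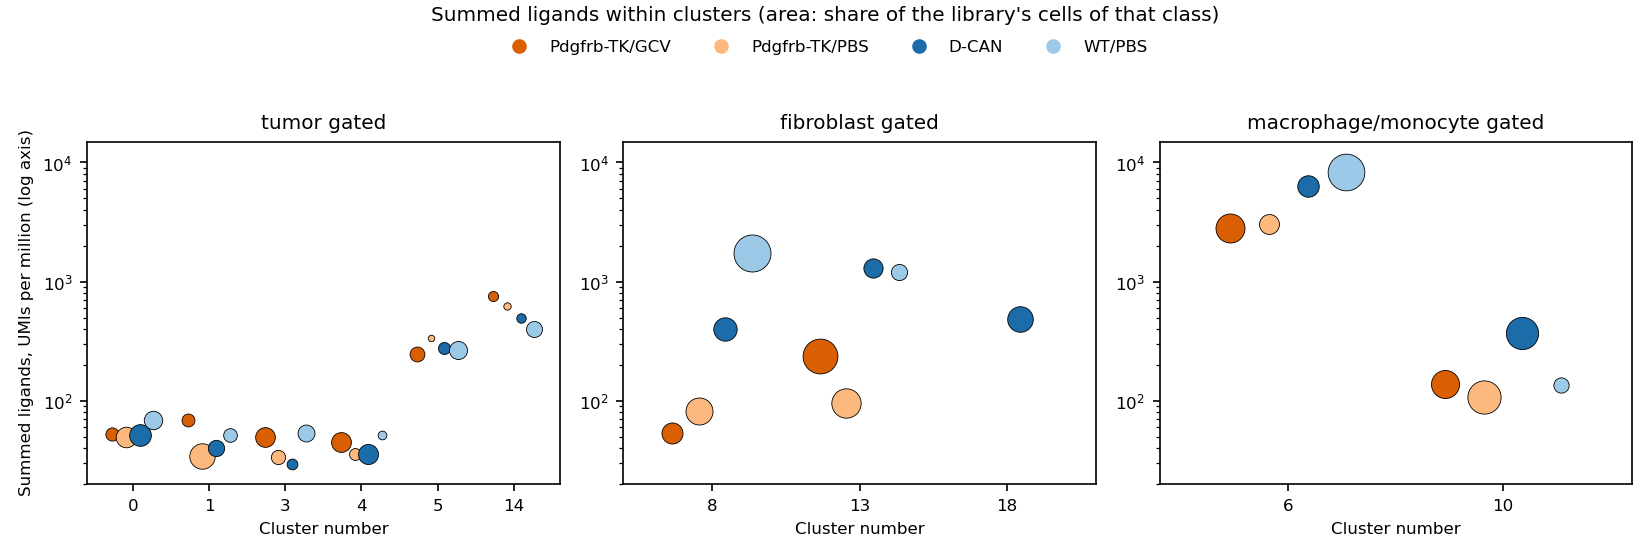
Summed CPM of the 4 ligands (y axis, log scale) in selected clusters (x axis) of tumor, fibroblast and macrophage/monocyte-gated cells by library (colors), with the area of a point in proportion to the cluster's share of the library's cells of that gate and clusters of under 50 such cells left out. Tumor clusters 5 and 14 and macrophage cluster 6 stand above the other clusters shown for their gate, with the ligand sum of macrophage cluster 6 at 2814 to 8264 CPM.

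In macrophage/monocyte-gated cells cluster 6 held nearly all of the ligand UMIs. It was led by Saa3, Wfdc21, Clec4e and Nos2, and took 48.5%, 22.8%, 26.5% and 77.5% of the gate's cells and 94.1%, 86.2%, 89.2% and 97.0% of its ligand UMIs. Cxcl2 in cluster 6 stood at 2521, 2755, 5476 and 6148 CPM and Cxcl3 at 121, 99.5, 447 and 1302 CPM. In cluster 10, led by Adamdec1, Ciita and Ms4a7, Cxcl2 stood at 121, 92.5, 351 and 82.9 CPM, so D-CAN was the highest there. With the cluster make-up held fixed, the ligand sum had a ratio of 0.947 for GCV and 0.750 for D-CAN.

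In fibroblasts the level inside a cluster and the share of cells per cluster both differed between libraries. In the order GCV, its PBS control, D-CAN and its PBS control, cluster 8 held 25.5%, 42.1%, 31.5% and 78.9% of fibroblast-gated cells. Cluster 13 held 167 of 239, 222 of 447, 246 of 1156 and 266 of 1758. Cxcl1 in fibroblast cluster 8, led by the matrix genes Col8a1, Col11a1 and Thbs2, stood at 28.6, 13.1, 258 and 1040.2 CPM. In cluster 13, led by Calca, Tff1, Dmkn, Slpi and Saa3, it stood at 99.6, 31.7, 448 and 486 CPM. Tff1 was also a leading gene of tumor cluster 1. Cluster 18, led by Clec3b and Tnxb, held 436 D-CAN cells of 477, with Cxcl1 at 293 CPM and the highest Cxcl5 of the D-CAN fibroblast clusters, 92.7 CPM. Holding the make-up fixed left the ligand sum at a ratio of 1.88 for GCV and 0.330 for D-CAN.

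**Figure D5:**
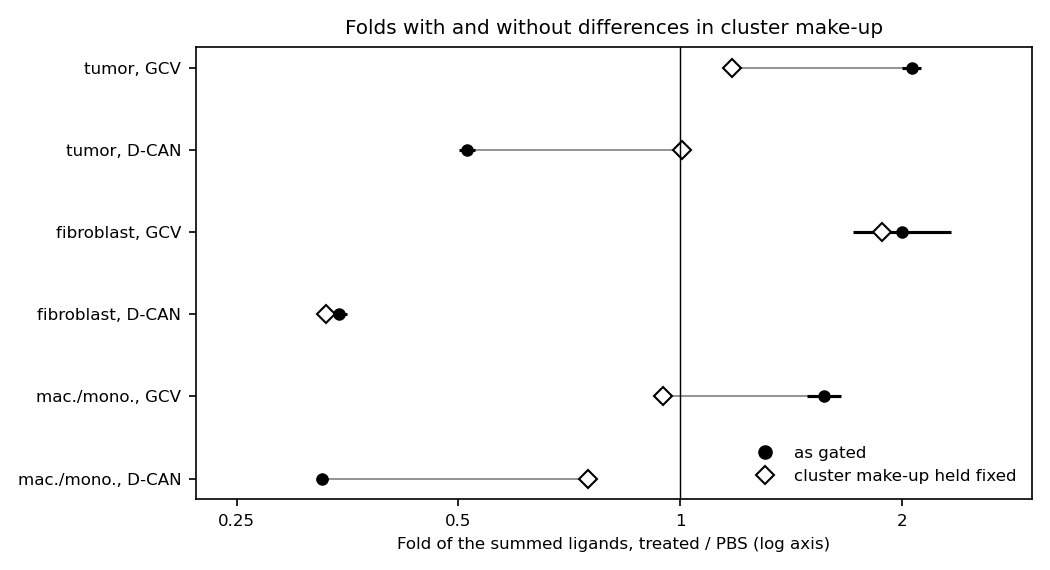
Ratio of the ligand sum, treated over its own PBS library (x axis, log scale, 1 as a line), in 3 gated classes and both comparisons (y axis), as gated (filled, with 95% counting intervals) and with the cluster make-up held fixed (open). In tumor cells the ratio moves from 2.06 to 1.17 for GCV and from 0.514 to 1.01 for D-CAN, while in fibroblasts it stays at 1.88 for GCV and 0.330 for D-CAN.

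Immediate early and heat shock messages were measured beside the ligands, since tissue dissociation is known to induce them. The 11 genes were chosen after the data were seen, and Fos, Atf3, Hspa1a and Hspa1b among them also lead clusters 5 or 14. Their summed level was 2264, 1449, 2107 and 3127 CPM in tumor-gated cells, 3395, 1726, 4259 and 9272 CPM in fibroblasts and 4383, 1962, 6587 and 6517 CPM in macrophage/monocyte-gated cells, in the order GCV, its PBS control, D-CAN and its PBS control. In these classes Pdgfrb-TK/PBS was the lowest library, as it was for the ligand sum. In macrophages D-CAN and WT/PBS were close for these genes, while their ligand sums were 2259 and 6923 CPM. In neutrophils the values were 9316, 10993, 15379.6 and 6858 CPM, beside ligand sums of 20242, 30535, 8433 and 9717 CPM. There D-CAN was the highest library for these genes and the lowest for the ligand sum. The part of these genes in the ligand differences was not tested.

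Pairs of ligands in single cells were counted at a thinned depth of 2000 UMIs. Among tumor-gated cells of Pdgfrb-TK/GCV with a Cxcl1 UMI, 47.7% (41.7 to 53.7%) also had Cxcl2, against 6.69% (6.05 to 7.37%) of those without. In WT/PBS the shares were 29.6% and 6.65% in tumor cells and 38.4% and 8.22% in fibroblasts. Macrophage/monocyte-gated cells of WT/PBS with Cxcl2 had Cxcl3 in 43.6% of cases, against 4.17% without. Cxcl5 was found beside Cxcl3 in 24.2% against 3.36% of tumor cells of WT/PBS. Some pairs of shares were closer together in some libraries or classes than in others. Cxcl5 stood beside Cxcl2 in 4.71% against 2.96% of tumor cells of Pdgfrb-TK/GCV and 5.42% against 3.08% of those of Pdgfrb-TK/PBS. In WT/PBS tumor cells the shares were 12.9% and 2.99%. In neutrophils of WT/PBS, Cxcl2 stood beside Cxcl1 in 64.3% (9 of 14 cells) against 61.2% (79 of 129 cells). Cells of 1 library are not replicates, so these shares describe the libraries.

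Lists of genes around the pathway were read by the same 2-fold measure, in genes with at least 50 UMIs in the 2 sums. In tumor-gated cells they stand beside 11.7% of all genes higher and 3.15% lower with GCV, and 15.6% higher and 6.80% lower with D-CAN. Of the inducers of the ligands, 4 of 6 tested were 2-fold higher with GCV in tumor-gated cells, namely the cytokines Il6 (10.5-fold), Tnf (2.42-fold), Il1a (2.34-fold) and Lif (2.30-fold), and 0 were lower. With D-CAN 2 of 6 were 2-fold lower there, Il6 (4.56-fold) and Il1a (3.11-fold), and 1 was higher, the alarmin Il33 (4.35-fold). Fewer of the NF-κB factors and feedback genes passed this measure, with 1 of 8 2-fold higher with GCV, the feedback inhibitor Tnfaip3 (2.27-fold), and 0 of 8 higher and 0 lower with D-CAN. Of the receptors and adaptors 3 of 9 were higher with GCV, Tlr2 (3.33-fold), Il1rap (3.30-fold) and Il17ra (2.27-fold), and 1 of 9 with D-CAN, Il17rc (2.81-fold). Of the neutrophil growth factors and their receptors, Csf2 (2.0-fold) and Csf2rb (2.31-fold) were higher with GCV. With D-CAN, Csf3, the factor that drives neutrophil production, was 2.89-fold lower, Csf2rb 2.23-fold lower and Csf3r 2.64-fold higher. None of the 4 genes listed as acting on mRNA decay, Zfp36, Zfp36l1, Zc3h12a and Elavl1, passed 2-fold in tumor-gated cells in either comparison. Of the other chemoattractant and retention genes reported here 4 of 7 were higher with GCV, from 2.56-fold to 4.15-fold, and these were Fpr2, C5ar1, Cxcr4 and Itgb2, which immune cells express. With D-CAN 1 of 6 was lower, Ptafr (2.31-fold). The 10 macrophage/monocyte markers summed to 52.5, 20.8, 12.4 and 16.2 CPM and the 10 neutrophil markers to 15.3, 28.7, 13.5 and 34.8 CPM in the tumor gate, in the order GCV, its PBS control, D-CAN and its PBS control, and their part in these folds was not tested.

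In fibroblasts, where 15.5% of all genes were higher and 8.28% lower with D-CAN, 3 of 6 inducers were 2-fold lower with D-CAN, Il1a (8.52-fold), Tnf (3.91-fold) and Il1b (2.79-fold), and 0 were higher. The ribonuclease Zc3h12a, which degrades messages of this kind, was 2.80-fold lower, the receptor antagonist Il1rn 2.82-fold and Il17ra 2.15-fold lower. Of the chemoattractant and retention genes 2 of 5 were higher, Cxcl12, which retains neutrophils in marrow, 2.31-fold and the chemokine scavenger Ackr1 34.4-fold, from 119 UMIs against 6. Another 2 of 5 were lower, Ltb4r1 3.39-fold and Cxcr4, the receptor for Cxcl12, 2.04-fold. The growth factor receptor chain Csf2rb was 2.45-fold higher. With GCV, beside 2.33% of all genes higher, 1 of 3 inducers, Il6 (5.71-fold), and 3 of 8 NF-κB genes, Nfkbia (2.27-fold), Tnfaip3 (2.11-fold) and Cebpb (2.01-fold), were higher.

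Macrophage/monocyte-gated cells had 3 of 6 inducers 2-fold higher with GCV, beside 6.40% of all genes, and these were Lif (5.24-fold), Il6 (2.74-fold) and Il1a (2.49-fold), while the platelet chemokines Pf4 and Ppbp, neighbours of the ligands on chromosome 5, were 3.30-fold and 2.68-fold lower and the formyl peptide receptor Fpr1 2.21-fold higher. With D-CAN, beside 4.33% of all genes lower and 14.6% higher, Csf3 was 38.0-fold lower, from 4 UMIs against 159, Il1rn 3.58-fold, Il1r1 2.94-fold, Il6 2.35-fold, Csf2rb 2.24-fold and Tlr2 2.04-fold lower, and 0 of 8 NF-κB genes were 2-fold higher and 0 lower. Fpr1 was 4.40-fold lower, and Ppbp was 3.21-fold and the leukotriene receptor Ltb4r1 3.92-fold higher. In neutrophils none of the 3 tested inducers and none of the 5 tested NF-κB genes passed 2-fold with GCV. With D-CAN, beside 14.4% of all genes higher, Il1b (3.18-fold), Il1a (2.88-fold) and Il1rap (3.38-fold) were higher. Endothelial Csf3 was 98.8-fold lower with D-CAN (interval 17.6 to 3914), from 1 UMI against 328, in the class in which Cxcl1 was also lower. Beside 4.69% of all genes lower there, Il6 (8.20-fold), Ackr1 (4.93-fold), Tnfaip3 (2.94-fold), Csf2rb (2.87-fold) and Nfkbia (2.72-fold) were lower too. With GCV, from 49 and 144 cells, endothelial Cxcl12 was 5.79-fold higher, and Cebpb and the decay factor Zfp36l1 were 2.34-fold and 2.12-fold lower. These stand beside 2.86% of all genes higher and 2.81% lower. Fibroblast markers in this gate summed to 500 CPM against 164 CPM and tumor markers to 2066 against 2990 CPM, and their part was not tested.

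The genes most like each member were read from the correlation of log2(CPM + 1) over 31 library-by-class sums of at least 20 cells, among 11564 genes. These sums share libraries and depth, so the values are a description. Cxcl1 was most like Ccl2 (r = 0.885), Hspa5 (0.796) and Ccl7 (0.756), and its r with Cxcl2 was 0.461. Cxcl2 was most like Cxcl3 (0.940), Tarm1 (0.93) and Clec4d (0.909), and after Cxcl2 the genes nearest Cxcl3 were Clec4d (0.884) and Clec4e (0.880). Cxcl5 was most like Ereg (0.801), Greb1l (0.790) and Col7a1 (0.787), and its r with Cxcl2 was -0.172. Cxcr2 was most like Mirt2 (0.972), Cstdc4 (0.958) and Gm26535 (0.95), and Cxcr1, at few UMIs, like 4732465J04Rik (0.933), Asprv1 (0.874) and Abca13 (0.851).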

How the data were processed

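Single-cell suspensions of the tumors were captured with a droplet kit that reads the 3′ end of each message. Per the labels and the file headers, the deposited values are UMI counts per gene and cell that the authors made with Cell Ranger (7.0.0 in the matrix headers) and STAR 2.6 on mm10, with empty droplets removed and nothing normalized. The extraction text in the labels describes nuclei of another tissue, so libraries were matched to conditions by their titles. The files hold 12280, 10495, 10786 and 11657 barcodes in the order GCV, its PBS control, D-CAN and its PBS control, more than the number of cells the study aimed for per group, and 12280, 10469, 10178 and 11627 with at least 200 genes were kept. Total depth over all barcodes ran from 84020317 to 155408336 UMIs per library. The libraries of wild-type mice list 5 features beyond the 32285 shared genes, and these were left out.

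A cell was given the class of which it held most of 10 markers, if it held at least 3 and at least 2 more than of any other class (9 classes: tumor, fibroblast, pericyte, endothelial, macrophage/monocyte, neutrophil, dendritic, T/NK and B). A class is therefore a range of marker counts. Among tumor-gated cells, 1406 of 6648, 1106 of 7011, 876 of 3367 and 1408 of 4999 stood exactly at 1 of these limits. Doublets were kept. UMIs were summed per library and class, and intervals at 95% are exact Poisson intervals for CPM, exact conditional binomial intervals for ratios and Clopper-Pearson intervals for shares. A count of 0 was read as allowing up to 3 UMIs. PCR and pooling were not modelled, so the intervals cover counting error only. With 1 library per condition no test was run, and a ratio was read against the share of genes past 2-fold among those with at least 50 UMIs in the pair of sums. Clusters came from the Leiden method on 10 principal components, 2000 variable genes and 20 neighbours, at resolution 0.8, with the members left out. The interval code was tested on simulated counts. Python 3.11.15, NumPy 2.4.6, SciPy 1.17.1, pandas 2.3.3, scikit-learn 1.9.0, scanpy 1.11.5, igraph 0.11.9, leidenalg 0.10.2 and matplotlib 3.10.9 were used.

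The members, the gene lists and the markers were chosen with earlier results of these data known. The text names all 6 members, genes of the lists past 2-fold in a treated library against its own control, and for each member the 3 genes most like it by correlation among those with a mean of at least 5 CPM. 1 gene of the lists is not reported here, and protein sequences were not used here.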

Additional observations from a re-analysis of the deposited data

How the results depend on the processing

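The ratios of the 4 ligands summed, treated over PBS, stood within the counting interval in 8 of 8 cases when cells with over 20% mitochondrial UMIs were left out and when mitochondrial genes were left out of the scaling, as did all 32 ratios of single members. With at least 500 genes per cell 7 of 8 did, and the GCV ratio in neutrophils, 0.663, became 0.704. The PBS library of the other model changed the direction of 7 of 8 sums. The GCV ratio went from 2.06 to 0.776 in tumor cells, from 2.0 to 0.111 in fibroblasts, from 1.57 to 0.216 in macrophages and from 0.663 to 2.08 in neutrophils, and the D-CAN ratio from 0.514 to 1.36, from 0.344 to 6.19, from 0.326 to 2.37 and, in neutrophils without a change of direction, from 0.868 to 0.276. Single ligands past 2-fold that turned were, for GCV, Cxcl1 (0.947), Cxcl2 (0.913) and Cxcl3 (0.467) in tumor cells and Cxcl1 (0.0820) in fibroblasts. For D-CAN they were Cxcl1 (1.32), Cxcl2 (1.12) and Cxcl3 (1.72) in tumor cells, Cxcl1 (11.2), Cxcl2 (4.78) and Cxcl3 (26.9) in fibroblasts and Cxcl1 (2.70), Cxcl2 (2.28) and Cxcl3 (3.88) in macrophages. The cause was not tested.

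With the cluster make-up held fixed, an alternative added after the data were seen, the sum stood for GCV at 1.17 in tumor cells and 0.947 in macrophages, and for D-CAN at 1.01 in tumor cells, 0.330 in fibroblasts and 0.750 in macrophages, and Cxcl2 of tumor cells in D-CAN went from lower to 1.10. For GCV, Cxcl1, Cxcl2 and Cxcl3 of tumor cells fell under 2-fold, to 1.10, 1.18 and 1.45. In all, 7 of 24 ratios of single members were no longer past 2-fold with this alternative, and not all of the 7 are named here. By construction this alternative takes out differences in the share of cells per cluster. It also leaves out clusters with under 20 cells of the gate in either library, so it does not cover the whole gate.

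The other alternatives moved the sums as follows, for causes that were not tested. With a stricter gate (4 markers, lead 3) the GCV ratio was 2.43 in tumor cells and 0.690 in neutrophils, and that of D-CAN 0.281 in fibroblasts and 1.02 in neutrophils, where the direction turned. With a looser gate (2 markers, lead 1) GCV gave 1.94 in tumor cells, 1.48 in macrophages and 0.636 in neutrophils, and D-CAN 0.444 in tumor cells, 0.355 in fibroblasts and 0.790 in neutrophils. With classes taken from clusters GCV gave 2.22 in tumor cells, 1.48 in fibroblasts, 1.17 in macrophages and 0.770 in neutrophils, and D-CAN 0.588, 0.368, 0.313 and 0.923 in these classes. Without the 8% of cells with the highest doublet scores GCV gave 2.19 in tumor cells, 2.06 in macrophages and 0.694 in neutrophils, and D-CAN 0.529 in tumor cells, 0.306 in fibroblasts and 0.345 in macrophages. Scaling by the trimmed mean of M values gave 1.83 in tumor cells, 1.67 in macrophages and 0.642 in neutrophils for GCV, and 0.471, 0.305, 0.274 and 0.793 for D-CAN in tumor cells, fibroblasts, macrophages and neutrophils. Cxcl2 of tumor cells with GCV fell under 2-fold with the looser gate (1.93), the trimmed mean (1.87) and equal cell weights (1.34). Cxcl3 of these cells did so with the looser gate (1.94) and equal cell weights (1.58). Of 32 ratios of single members, 1 was no longer past 2-fold with the stricter gate and 2 with classes from clusters. Those 3 are not named here. Weighting each cell alike gave 1.43 in tumor cells and 0.707 in neutrophils for GCV, and 0.464, 0.307, 0.263 and 0.757 for D-CAN in the same order. Over gated cells only, the share of ligand UMIs in the leading class rose from 46.7% to 59.5% in Pdgfrb-TK/PBS, from 31.3% to 40.6% in WT/PBS, from 30.8% to 39.4% in Pdgfrb-TK/GCV and from 27.6% to 31.9% in D-CAN.

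No paired analysis was possible because each condition is 1 library of pooled tumors, and for the same reason none was left out. Depth limits Cxcr1 in every library, Cxcl3 in fibroblasts of the Pdgfrb-TK libraries, Cxcl5 in myeloid cells and Cxcr2 outside neutrophils. Neutrophils were shallow, and most of those in the Pdgfrb-TK libraries fell below the depth used for thinning. Mice, pools, dissociations and treatments cannot be told apart between libraries.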
